A study of Saccharomyces cerevisiae with 18 samples.

Results

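The 10 genes described here encode proteases of the Golgi, the cell surface and the vacuole of Saccharomyces cerevisiae. Of these, 3 process leaders in the Golgi (KEX2, KEX1 and STE13) and 3 are yapsins of the cell surface (YPS1, YPS3 and MKC7). The other 4 are proteases of the vacuole (PEP4, PRB1, PRC1 and CPS1). All 10 genes were chosen by gene symbol, and each was read by a single probe set among the 5449 genes tested. Total RNA came from 18 cultures grown in bioreactors and sampled while they grew exponentially, 3 for each of 6 strains. All strains derived from the haploid ura3 strain CEN.PK 113-5D, which the methods give as MATa, and all carried a high-copy URA3 plasmid. In WN the plasmid p426GPD was empty, in WI it was p426-YapIns, which makes a human insulin precursor, and in WA it was p426-YapAmy, which makes α-amylase, with the constitutive TDH3 (GPD) promoter in front of both proteins. The strains dN, dI and dA carried the same 3 plasmids in cells whose HAC1 gene had been replaced by a kanMX cassette. HAC1 codes for the factor that turns on genes of the unfolded protein response. The comparisons ask how the protease genes stood after the loss of this factor and while a foreign protein was being secreted.

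A secreted yeast protein loses its pre sequence to signal peptidase in the endoplasmic reticulum. Where it also carries a pro sequence like that of α-factor, Kex2 removes this in the late Golgi. Kex2 is a serine protease of the furin family that cuts after pairs of basic residues such as Lys-Arg. Kex1 is a carboxypeptidase that then trims exposed basic residues, and Ste13 is an aminopeptidase that takes dipeptides from the front of α-factor. The yapsins are aspartyl proteases held at the plasma membrane and cell wall by a lipid anchor, they cut after basic residues, and cells without them have weak walls. In the vacuole, proteinase A (Pep4) starts the maturation of proteinase B (Prb1), carboxypeptidase Y (Prc1) and other hydrolases. Strains without PEP4 or PRB1 are widely used to spare proteins that are otherwise degraded.

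Both secreted proteins were made behind a designed leader that ties them to these enzymes. Its pre sequence codes for the signal peptide of Yps1, known earlier as Yap3, in codons chosen for the construct, and its pro sequence of 126 bases (42 codons) is followed by the dibasic codon pair that Kex2 recognises. In the study's construct sequence, which is 393 bases long with positions counted from its first base, a spacer of 18 bases (6 codons) ending in a Lys codon lies between this pair and the insulin precursor. The primer that joins the leader to the α-amylase gene carries 22 bases of the same leader end, so the α-amylase construct has the same Arg codon and spacer. The pre sequence codes for the signal peptide of one of the proteases, and the junction holds the site of another. Both are shown for this reason, and capitals in the junction mark the Lys and Arg codons of the dibasic pair alone.
Designed pre sequence coding for the Yps1 signal peptide, bases 13 to 75: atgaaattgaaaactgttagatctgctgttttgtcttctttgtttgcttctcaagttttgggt
End of the pro sequence, the dibasic pair and the spacer, bases 187 to 225: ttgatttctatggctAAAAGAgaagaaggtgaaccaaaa

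HAC1 itself read between 10.54 and 10.96 on the log2 scale on the 9 wild-type arrays and between 1.08 and 1.75 on the 9 deletion arrays, all of the latter below the background level of 4.38 to 4.63 that was taken from probe sets of other species and unnamed ones. MATa genes were above background on all 18 arrays (MFA1, MFA2, STE2, STE6 and BAR1), whereas of 4 genes of α cells MF(ALPHA)2 was above it on 0 arrays, STE3 on 14, MF(ALPHA)1 on 16 and SAG1 on 18. An array of the dN strain stood apart: dN replicate 3 deviated from its strain mean with an SD of 0.361 over all genes, against 0.0768 to 0.180 for the 15 arrays of the other strains and 0.155 and 0.250 for the other 2 dN arrays. Over the 10 protease genes its deviation was larger still, with an SD of 0.690. Results that rest on it are given with and without it. Cell lysis for WN replicate 1 is labelled differently from that for the other 17 arrays, and whether this moved a value was not tested.

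Across the 10 genes and 12 contrasts, limma's test with adjustment over all genes called 2 differences, both in yapsins and both lower: YPS1 in the HAC1 deletion averaged over the 3 plasmids, and MKC7 in dI against dN. All 10 genes read above background on every array. The array values that follow are deposited log2 signals, a difference of 1 is a factor of 2, and levels of different genes are not compared, since probe sets differ in brightness. With 1 culture behind each array, fewer cells with a transcript and less transcript per cell cannot be told apart.

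**Figure D1:**
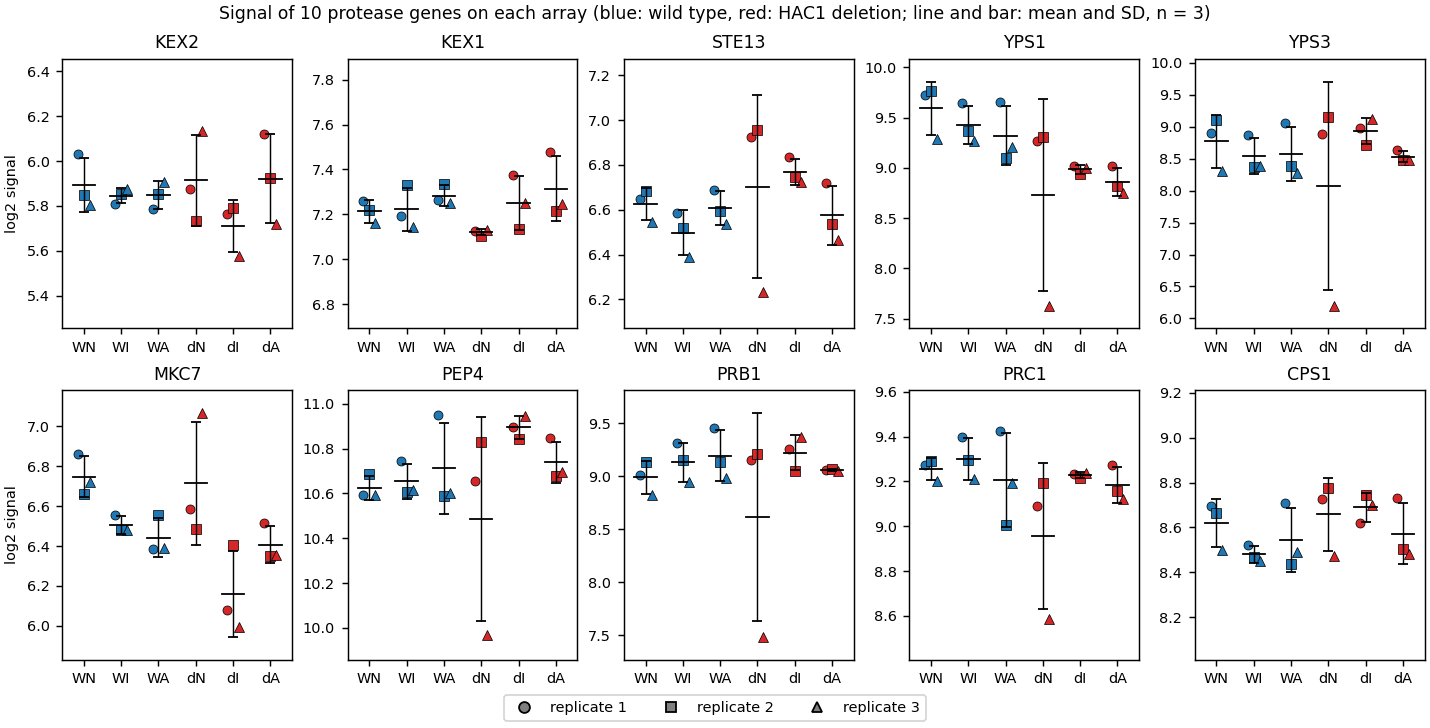
Deposited log2 signal (y axis, own range per gene) of the 10 protease genes in the 6 strains (x axis), 1 point per array, blue for wild type and red for the HAC1 deletion, with the mean and SD (n = 3). In dN, replicate 3 (triangle) lies far below the other 2 arrays for YPS1, YPS3 and PRB1 and above them for MKC7.

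The Golgi enzymes showed small differences between strains. KEX2 stood at 5.89 ± 0.12 in WN (SD, n = 3), 5.85 ± 0.03 in WI, 5.85 ± 0.06 in WA, 5.91 ± 0.20 in dN, 5.71 ± 0.12 in dI and 5.92 ± 0.20 in dA. From highest to lowest mean the order was dA, dN, WN, WA, WI and dI, and among neighbours in this order the arrays of WI and dI alone did not overlap. The difference of dI from WI was -0.14 on the log2 scale (SE 0.11, adjusted p = 0.439), with a 95% interval of -0.37 to 0.10. KEX1 varied least around its strain means in dN, where its 3 arrays read 7.13, 7.11 and 7.13. The 3 arrays of dA, with 7.48, 7.21 and 7.25, all lay above these, and the log2 difference was 0.19 (SE 0.08, adjusted p = 0.128).

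For STE13 the calls depended on dN replicate 3. It read 6.65, 6.68 and 6.54 in WN and 6.93, 6.95 and 6.23 in dN. Replicates 1 and 2 of dN were above every WN array and replicate 3 was below them all. In the strains with the insulin precursor the groups did not overlap, with 6.59, 6.52 and 6.39 in WI and 6.83, 6.74 and 6.72 in dI. With all 18 arrays neither difference passed, at a log2 difference of 0.08 (SE 0.14, adjusted p = 0.732) for dN against WN and 0.27 (SE 0.14, adjusted p = 0.215) for dI against WI. Without dN replicate 3 both did, at 0.31 (SE 0.08, adjusted p = 0.0134) and 0.27 (SE 0.07, adjusted p = 0.0124). The second of these contrasts does not use dN: its value stayed the same and its error shrank, because all strains share an estimate of the spread. In the strains with α-amylase STE13 differed by -0.03 (95% interval -0.34 to 0.27), with 6.69, 6.59 and 6.54 in WA and 6.72, 6.54 and 6.47 in dA.

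YPS1, whose protein lends its pre sequence to the leader, was lower in the HAC1 deletion when the 3 plasmids were averaged, and its mean was lower with each of them. Wild-type arrays read 9.73, 9.76 and 9.28 in WN, 9.64, 9.37 and 9.27 in WI and 9.65, 9.10 and 9.20 in WA. Deletion arrays read 9.26, 9.31 and 7.63 in dN, 9.02, 8.94 and 9.00 in dI and 9.02, 8.82 and 8.75 in dA. The arrays of dI lay below all of WI and those of dA below all of WA, while dN and WN overlapped by a narrow margin. Averaged over the plasmids, YPS1 was 1.50-fold lower (log2 difference -0.58, SE 0.18, adjusted p = 0.0186), in a contrast that called 43.1% of all genes and 19.4% as lower. Each plasmid alone gave -0.86 (SE 0.32, adjusted p = 0.0665) for dN against WN, -0.44 (SE 0.32, adjusted p = 0.385) for dI against WI and -0.45 (SE 0.32, adjusted p = 0.338) for dA against WA. Without dN replicate 3 the averaged difference was -0.40 (SE 0.09, adjusted p = 0.00139), and dI against WI and dA against WA passed with their values as before (adjusted p = 0.0304 and 0.0236), whereas dN against WN came to -0.31 (adjusted p = 0.194). Without dN replicate 1 or 2 instead, dN against WN passed, at -1.12 (adjusted p = 0.0325) and -1.15 (adjusted p = 0.0161). Secretion of either protein gave no called difference in YPS1, with log2 differences of -0.16 for WI against WN, -0.27 for WA against WN, 0.25 for dI against dN and 0.13 for dA against dN. The last 2 turned, without dN replicate 3, to -0.30 (adjusted p = 0.229) and -0.42 (adjusted p = 0.0702).

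YPS3, which lies next to YPS1 on chromosome XII in the R64 reference, gave no called difference in any contrast. Its arrays read 8.90, 9.10 and 8.31 in WN, 8.87, 8.37 and 8.38 in WI and 9.05, 8.39 and 8.27 in WA. In the deletion they read 8.88, 9.15 and 6.20 in dN, 8.97, 8.72 and 9.11 in dI and 8.64, 8.48 and 8.48 in dA. The third dN array was more than 2 log2 units below every other array, and the remaining deletion arrays lay within the range of wild type or just above it. The deletion gave -0.69 (SE 0.53, adjusted p = 0.369) with the empty plasmid, 0.39 (SE 0.53) with the insulin precursor and -0.04 (SE 0.53) with α-amylase. Without dN replicate 3 the first of these turned to 0.25 (SE 0.24, adjusted p = 0.495), and the 0.86 of dI against dN turned to -0.08 (SE 0.24, adjusted p = 0.86). Even among the 15 arrays of the other strains YPS3 spread widely around its strain means, with an SD of 0.309, larger than that of 98.4% of all genes. YPS1, at 0.208, exceeded 91.2% of genes in this respect.

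MKC7, also called YPS2, was lower in dI than in dN, and its mean was lower in each of the 4 secreting strains than in the strain with the same HAC1 genotype and the empty plasmid. It read 6.86, 6.66 and 6.72 in WN, 6.56, 6.48 and 6.48 in WI, and 6.38, 6.56 and 6.39 in WA. Both secreting wild types lay below all WN arrays. In the deletion it read 6.59, 6.49 and 7.07 in dN, 6.08, 6.41 and 5.99 in dI and 6.51, 6.35 and 6.35 in dA. The dI arrays lay below all dN arrays, and dA overlapped dN. The difference of dI from dN was 1.47-fold (log2 -0.55, SE 0.13, adjusted p = 0.0121), where 12.8% of all genes were called, 5.78% as lower. Here dN replicate 3 was the highest of all 18 arrays, and without it the difference was -0.38 (SE 0.11, adjusted p = 0.0232). The call was lost without dI replicate 1 (-0.51, adjusted p = 0.0531) or dI replicate 3 (-0.47, adjusted p = 0.0696), and when dI and dN alone were fitted (adjusted p = 0.247). The other 3 secretion contrasts did not pass, with -0.24 for WI against WN (adjusted p = 0.897), -0.31 for WA against WN (adjusted p = 0.234) and -0.31 for dA against dN (adjusted p = 0.145), which was -0.13 (adjusted p = 0.404) without dN replicate 3. WI and WA share the WN arrays, and dI and dA share those of dN. Between dI and WI, MKC7 differed by -0.35 (SE 0.13, adjusted p = 0.0788), with no overlap of arrays, and this passed without dN replicate 3 (adjusted p = 0.0116) and without dI replicate 2 (-0.47, adjusted p = 0.028).

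**Figure D2:**
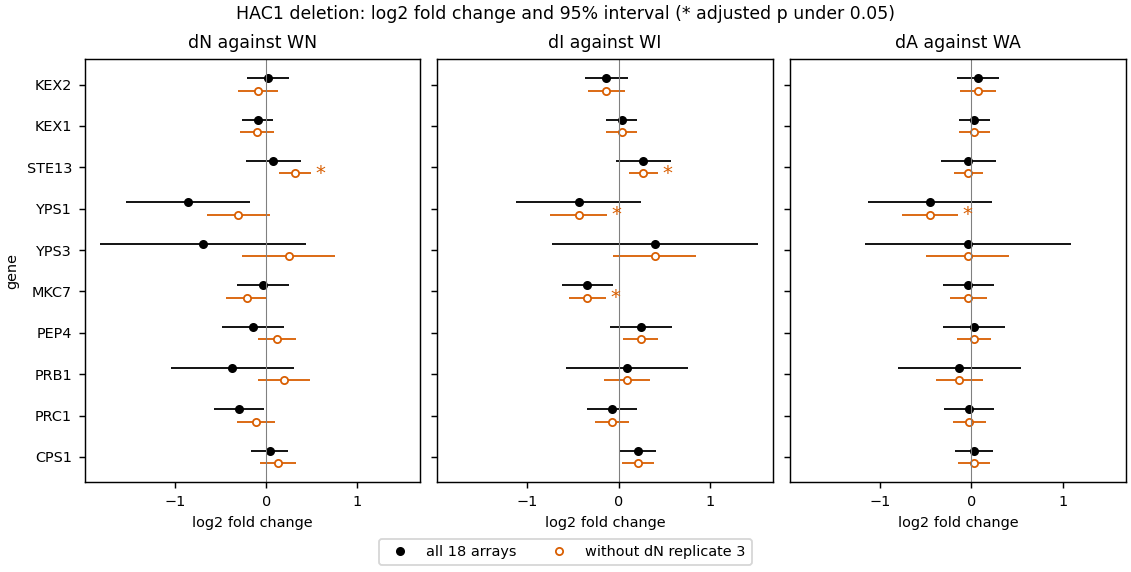
Log2 fold change of each protease gene (y axis) between deletion and wild-type strains with the same plasmid, with 95% intervals, from all 18 arrays (black) and without dN replicate 3 (orange, open). Stars mark an adjusted p under 0.05; none of the black points has one, while without dN replicate 3 STE13 has one in 2 contrasts, YPS1 in 2 and MKC7 in 1.

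Among the vacuolar proteases no difference passed in any contrast. PEP4 read 10.59, 10.69 and 10.59 in WN, 10.66, 10.83 and 9.97 in dN and 10.89, 10.84 and 10.95 in dI. The dI arrays lay above all those of dN, of WN and of WI (10.74, 10.60 and 10.61). They overlapped those of WA (10.95, 10.59 and 10.60) and of dA (10.85, 10.68 and 10.70). The log2 difference was 0.41 (SE 0.16, adjusted p = 0.106) for dI against dN and 0.24 (SE 0.16, adjusted p = 0.338) for dI against WI. Without dN replicate 3 these were 0.15 (SE 0.10, adjusted p = 0.325) and 0.24 (SE 0.09, adjusted p = 0.0532), and without dN replicate 2 the first passed at 0.58 (adjusted p = 0.0159).

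PRB1 stood at 8.99 ± 0.15 in WN, 9.13 ± 0.18 in WI, 9.19 ± 0.24 in WA, 9.22 ± 0.16 in dI and 9.06 ± 0.01 in dA (SD, n = 3). In dN its arrays read 9.16, 9.21 and 7.48, so that 2 of them were above all WN arrays and the third was below every other array of the series. The difference of dN from WN was -0.37 (SE 0.32, adjusted p = 0.424) with all arrays and 0.19 (SE 0.13, adjusted p = 0.329) without dN replicate 3. That of dI from dN went from 0.61 (SE 0.32, adjusted p = 0.22) to 0.04 (SE 0.13, adjusted p = 0.872).

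PRC1 read 9.09, 9.19 and 8.59 in dN, all below the 9.28, 9.29 and 9.20 of WN. The difference was -0.30 (SE 0.13, adjusted p = 0.109) and came to -0.11 (SE 0.10, adjusted p = 0.437) without dN replicate 3, but passed without dN replicate 2 (-0.42, adjusted p = 0.0251). In the strains with a secreted protein the deletion moved PRC1 by -0.07 (95% interval -0.35 to 0.20) and -0.02 (95% interval -0.30 to 0.25). CPS1, the membrane-bound carboxypeptidase S, read 8.62, 8.74 and 8.70 in dI, above the 8.52, 8.47 and 8.45 of WI, at a log2 difference of 0.21 (SE 0.10, adjusted p = 0.144). Its strain means ranged from 8.48 in WI to 8.69 in dI, and no pair of neighbours in their order was separated.

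The third dN array therefore moved the genes by very different amounts. Relative to the mean of the other 2 dN arrays it was lower by 2.82 log2 units for YPS3, by 1.70 for PRB1, by 1.66 for YPS1, by 0.77 for PEP4, by 0.71 for STE13, by 0.55 for PRC1 and by 0.28 for CPS1. It was higher by 0.53 for MKC7 and by 0.33 for KEX2. KEX1 differed by 0.02. In 9 of the 10 genes this exceeded the gap between the other 2 dN arrays, which was 0.14 for KEX2 and 0.02 for KEX1. The SD of the 3 dN arrays exceeded that of 98.3% or more of all genes for YPS3, PRB1 and YPS1, and that of 0.7% for KEX1.

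**Figure D3:**
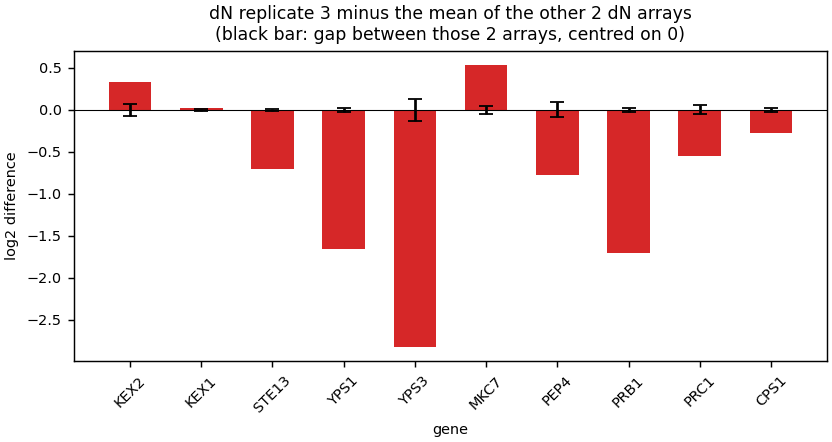
Log2 signal of dN replicate 3 minus the mean of the other 2 dN arrays for each protease gene (red bars, y axis), with the gap between those 2 arrays drawn as a black bar centred on 0. The bars run from -2.82 for YPS3 to 0.53 for MKC7.

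Counted per deletion contrast, none of the 10 genes was called in dN against WN, where 21.5% of all genes were (12.0% as lower), none in dI against WI (20.2%, and 10.8% as lower) and none in dA against WA (23.2%, and 13.6% as lower). At an unadjusted p under 0.05, limma gave YPS1 and PRC1 in the first, MKC7 and CPS1 in the second and 0 genes in the third. Arrays of the compared strains did not overlap for 2 of the 10 in dN against WN (KEX1 and PRC1), for 6 in dI against WI (KEX2, STE13, YPS1, MKC7, PEP4 and CPS1) and for 1 in dA against WA (YPS1). Over all genes these shares were 30.8%, 46.0% and 45.7%. The median log2 fold change of the 10 was -0.12, 0.06 and -0.03, against 0.03, 0.04 and 0.01 over all genes, and the first of these was 0.01 without dN replicate 3.

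Without dN replicate 3 the calls were STE13 in dN against WN, STE13, YPS1 and MKC7 in dI against WI, YPS1 in dA against WA, and STE13, YPS1 and MKC7 in the average. The shares of all genes called then were 21.0%, 30.0%, 33.6% and 49.2%. At an unadjusted p under 0.05 this fit gave STE13 in dN against WN, where YPS1 and PRC1 no longer passed, YPS1 in dA against WA, and STE13, YPS1, MKC7, PEP4 and CPS1 in dI against WI and in the average. The count for dI against WI and that for dA against WA were the same when all 3 dN arrays were left out of the fit, with 30.4% and 34% of all genes called.

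For the secreted proteins, 0 of the 10 were called in WI against WN (0.294% of all genes) and 0 in WA against WN (4.79%), with MKC7 past an unadjusted p of 0.05 in the second. MKC7 was the 1 gene of the 10 without overlap in each, against 16.4% and 24.8% of all genes. In the deletion, 1 of the 10 was called in dI against dN and 0 in dA against dN, where 11.8% of all genes were. At an unadjusted p under 0.05 limma gave MKC7 and PEP4 in the first and KEX1 and MKC7 in the second. KEX1, MKC7, PEP4 and PRC1 did not overlap in the first (24.8% of all genes) and KEX1 in the second (23.5%). The median log2 fold change of the 10 was 0.19 and 0.16 there, against -0.02 over all genes in both, and 8 and 7 of the 10 values were above 0. These medians were -0.07 and -0.13 without dN replicate 3, with 4 and 3 values above 0. In the same fit STE13 was also called, as lower in dA against dN (-0.36, SE 0.08, adjusted p = 0.00513), where 24.7% of all genes were.

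Between the 2 secreted proteins 0 of the 10 genes were called in WA against WI (0.496% of all genes) or in dA against dI (0.991%), and limma gave 0 genes at an unadjusted p under 0.05 in either. Arrays of dA and dI did not overlap for STE13 and YPS3, against 32.1% of all genes. When dN replicate 3 was left out, limma's unadjusted p in dA against dI was 0.0385 for KEX2, 0.0211 for STE13 and 0.0195 for MKC7, and again 0 were called. Nor did the effect of a protein pass a test of differing between deletion and wild type: 0 of the 10 in the interaction of the insulin precursor with the deletion (0.716% of all genes) and 0 in that of α-amylase (1.34%), with 0 at an unadjusted p under 0.05 in both. In the latter STE13 came to -0.35 (limma's adjusted p = 0.0719) without dN replicate 3 and passed an unadjusted p of 0.05. The intervals were wide, from -0.51 to 2.68 on the log2 scale for YPS3 with the insulin precursor and from -0.12 to 0.36 for KEX1.

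**Figure D4:**
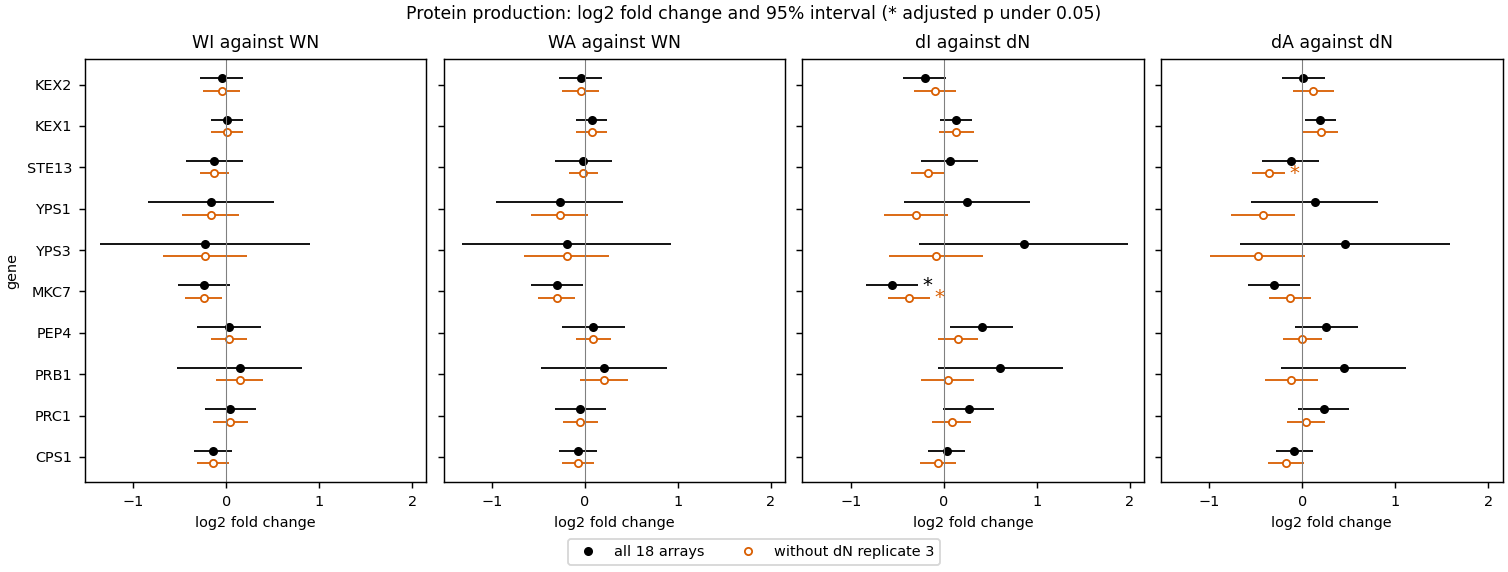
Log2 fold change of each protease gene (y axis) between strains with and without a secreted protein, with 95% intervals, from all 18 arrays (black) and without dN replicate 3 (orange, open), the wild type in the left 2 panels and the deletion in the right 2. MKC7 in dI against dN carries a star (adjusted p under 0.05) in both fits and STE13 in dA against dN in the fit without dN replicate 3.

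Signal peptidase acts on the leader before Kex2. All 4 of its subunit genes were called as lower in the deletion in dN against WN (12.0% of all genes were) and in the average over plasmids (19.4%), and 2 of the 4 in dI against WI (10.8%) and in dA against WA (13.6%). The log2 differences in dN against WN were -0.56 for SPC2 (SE 0.08, adjusted p = 8.14e-05), -0.44 for the catalytic subunit SEC11 (SE 0.08, adjusted p = 0.000782), -0.22 for SPC1 and -0.22 for SPC3. SPC2 and SEC11 were the 2 called in dI against WI (-0.47 and -0.35) and in dA against WA (-0.38 and -0.31), where SPC1 (0.04 and -0.17) and SPC3 (-0.19 and -0.01) did not pass with all arrays. When dN replicate 3 was left out, SPC3 passed in dI against WI (adjusted p = 0.0286) and SPC1 in dA against WA (adjusted p = 0.0399). Of the contrasts for a secreted protein, dI against dN called 1 of the 4, SPC1, as higher (0.23, adjusted p = 0.0446), where 7.05% of all genes were. Without dN replicate 3 this was 0.31 (adjusted p = 0.00588), and SPC1 was also called as higher in dA against dN (0.20, adjusted p = 0.0411). SEC11 stood at 8.17 ± 0.09 in WN and 7.73 ± 0.11 in dN (SD, n = 3). The median of the 4 was -0.25 in the average over plasmids, against 0.04 over all genes.

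Of 3 inhibitors of the vacuolar proteases, PBI2, which encodes the inhibitor of proteinase B, fell in all 3 deletion strains, at log2 differences of -1.54, -1.27 and -1.28. Its level was 9.88 ± 0.10 in WN and 8.35 ± 0.27 in dN (SD, n = 3), and the averaged change was 2.57-fold (adjusted p = 1.3e-09). TFS1, which encodes the inhibitor of carboxypeptidase Y, and PAI3, which encodes that of proteinase A, did not pass in the deletion contrasts with all arrays. When dN replicate 3 was left out, TFS1 was higher in dI against WI (0.51, adjusted p = 0.00233), in the averaged deletion (0.25, adjusted p = 0.00481) and in WA against WN (0.73, adjusted p = 0.000406). With all arrays, in dI against dN both were higher, TFS1 by 1.05 (SE 0.22, adjusted p = 0.00528) and PAI3 by 0.61 (SE 0.18, adjusted p = 0.0348). TFS1 was also higher in dA against dN (0.78, adjusted p = 0.031). Signals of PAI3 were close to background, with 1 of the 3 dN arrays above it. When dN replicate 3 was left out, PAI3 differed by 0.38 (adjusted p = 0.09). TFS1 then differed by 0.68 for the insulin precursor (adjusted p = 0.00136) and by 0.41 for α-amylase (adjusted p = 0.0228).

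Other aspartyl proteases and vacuolar hydrolases moved in both directions. BAR1, the MATa protease that degrades α-factor, was lower in the deletion by 0.83, 0.78 and 0.46 log2 units in dN, dI and dA. The yapsin gene YPS7 was higher in dA against WA (0.33). It was also higher in the averaged deletion (0.15, limma's adjusted p = 0.0296), where 23.7% of all genes were called as higher. Without dN replicate 3 that average was 0.18 (limma's adjusted p = 0.0029). YPS6 did not pass, and YPS5 was below background on all 18 arrays. Among 8 other vacuolar hydrolases measured, the α-mannosidase gene AMS1 was lower in dN against WN (-1.59, or -0.96 without dN replicate 3). It was also lower in the averaged deletion (-1.14, adjusted p = 0.0006, and -0.92, adjusted p = 3.13e-06, without that array). Its mean was 7.56 in dI against 8.38 in WI and 7.34 in dA against 8.34 in WA, differences not called with all arrays. The aminopeptidase genes APE1 (0.35) and APE3 (0.27) and the acid trehalase gene ATH1 (0.55) were higher in dI against WI. In dA against WA 1 was called, ECM14 (0.29). APE1 was also higher with α-amylase in wild type (0.27) and with either protein in the deletion (0.64 for dI and 0.42 for dA), and ATH1 in dI against dN (0.77). When dN replicate 3 was left out, the number of the 8 called in dI against WI went from 3 (20.2% of all genes) to 5 (30.0%), 3 higher and 2 lower. In dA against WA it went from 1 (23.2%) to 3 (33.6%), 2 higher and 1 lower. In WA against WN it went from 1 (4.79%) to 2 (9.54%), both higher.

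Of 11 measured genes for sorting to the vacuole, PEP1, which encodes the receptor of carboxypeptidase Y, did not pass, with log2 differences of -0.08, -0.03 and -0.02 in the 3 deletion contrasts. MRL1, a gene related to mammalian mannose 6-phosphate receptors, was lower in the deletion with each plasmid (-0.83, -0.79 and -0.65). VPS8 was lower in dA against WA (-0.37). Leaving out dN replicate 3, the number of the 11 called in dN against WN went from 1 (21.5% of all genes) to 3 (21.0%), 2 higher and 1 lower. In dI against WI it went from 1 (20.2%) to 2 (30.0%), 1 higher and 1 lower, and in dA against dN from 0 (11.8%) to 2 (24.7%). In the retromer, which returns such receptors to the Golgi, VPS5 was lower with each plasmid (-0.45, -0.35 and -0.37). PEP8 (VPS26) was lower in dN against WN (-0.32, limma's adjusted p = 0.0206, and -0.27, adjusted p = 0.0592, without dN replicate 3). In that contrast 3 of the 5 genes were not called with all arrays, and 21.5% of all genes were called, 12.0% as lower. Of 5 genes for processing of a-factor and other prenylated proteins, STE23 was higher in dN against WN (0.40) and STE24 in dA against WA (0.32).

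Among 4 genes for Kex2 substrates, HSP150 was higher in dI against WI (0.41). MF(ALPHA)1, which encodes the α-factor precursor and is an α-cell gene, was lower in dA against WA (-2.30) and higher with α-amylase in wild type (2.56). It stood at 5.16 ± 0.16 in WN, 6.01 ± 0.26 in WI and 7.73 ± 0.27 in WA (SD, n = 3). In the deletion it stood at 5.80 ± 0.12 in dI, 5.42 ± 0.03 in dA and 4.18 ± 0.35 in dN. In dN 1 of the 3 arrays was above background, so no difference is given against that strain. EXG1 did not pass in these contrasts with all arrays. Leaving out dN replicate 3, the number of the 4 called in dA against WA went from 1 (23.2% of all genes) to 3 (33.6%). In WI against WN it went from 0 (0.294%) to 1 (0.991%).

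Of 13 measured genes linked to cell wall integrity, PIR1, which encodes a cell wall protein, was higher in the deletion with each plasmid (0.58, 0.58 and 0.66). In dI against WI PIR3 (1.97) and PST1 (1.12) were also higher. PIR1 was higher with α-amylase in wild type (0.50) and in the deletion (0.58), and PIR3 in dI against dN (2.07, adjusted p = 0.0323, and 1.17, adjusted p = 0.0614, without dN replicate 3). The count called in the averaged deletion was 3 of 13 with all arrays (43.1% of all genes) and 9 of 13 without dN replicate 3 (49.2%), all of them higher. In dA against WA it went from 1 (23.2%) to 7 (33.6%), of which 5 were higher and 2 lower. It went from 1 (21.5%) to 3 (21.0%) in dN against WN and from 3 (20.2%) to 6 (30.0%) in dI against WI, all higher.

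**Figure D5:**
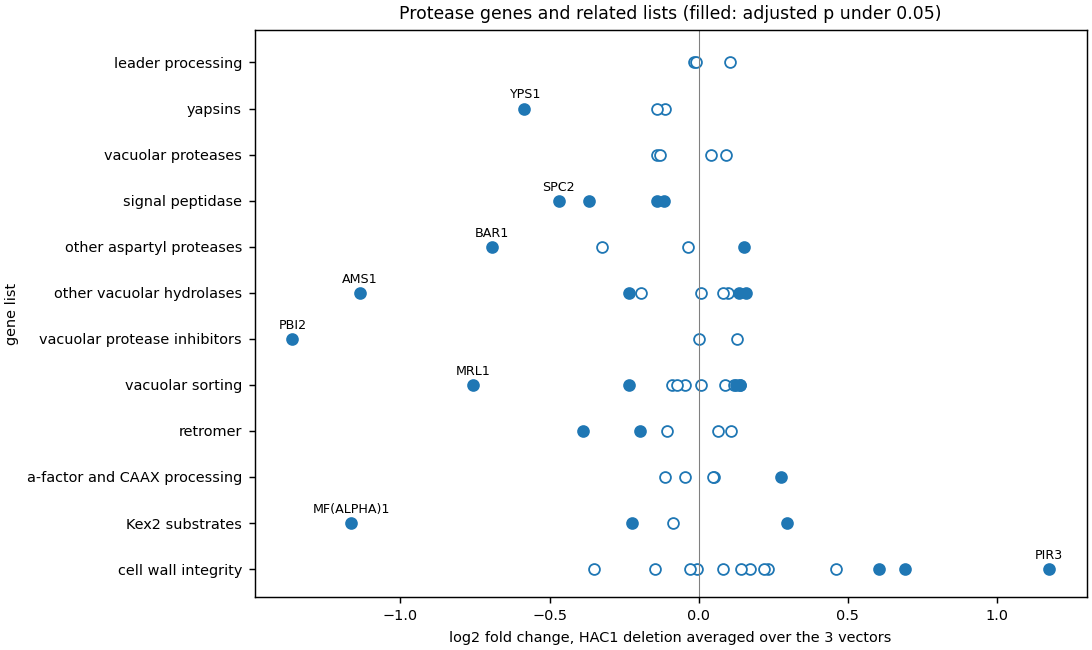
Log2 fold change of the HAC1 deletion averaged over the 3 plasmids (x axis) for each measured gene of the protease groups and of related lists (y axis), filled where the adjusted p was under 0.05. YPS1 is filled among the 10 protease genes, and PBI2, MF(ALPHA)1 and AMS1 lie farthest to the left. The value of MF(ALPHA)1 includes dN, where 1 of its 3 arrays was above background.

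Over the 18 arrays the pattern of YPS3 was most like that of CRH1, which encodes a cell wall transglycosylase (Pearson r = 0.987), followed by PUN1 (0.982) and YNL208W (0.972), among 4761 genes above background on every array. CRH1 and PUN1 also came first without dN replicate 3 (0.945 and 0.937 over 17 arrays). PEP4 was closest to BXI1 (0.976), PLN1 (0.963) and AIM17 (0.955), and BXI1 and PLN1 led without that array too (0.93 and 0.892). PRB1 was closest to ECL1 (0.973), YNL208W and SDS24 (0.963 each), and these were 0.91, 0.847 and 0.719 without that array. These values describe arrays that share strains and, in dN, a single array far from the rest.

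For YPS1 the nearest patterns were MYO3 (0.96), TMA17 (0.953) and AXL2 (0.951), but without dN replicate 3 KRE5, ORM2 and ARI1 took their place (0.951, 0.946 and 0.941). For STE13 they were PMC1, RCR1 and DIA1 (0.922 each, and 0.903, 0.89 and 0.903 without dN replicate 3). For MKC7 they were LAA1 (0.915), NSG1 (0.912) and KEI1 (0.896), at 0.875, 0.932 and 0.852 without it. PRC1 was nearest to COS4 (0.907), YET1 (0.902) and YIL108W (0.89), which fell to 0.83, 0.649 and 0.681 without dN replicate 3. CPS1 was nearest to MDL2 (0.892), BAP3 (0.881) and GPI18 (0.852), at 0.884, 0.902 and 0.846 without it. KEX2 was nearest to OST1, a subunit of oligosaccharyltransferase (0.868), MNN5 (0.834) and PER1 (0.825), at 0.86, 0.783 and 0.761 without that array. The lowest leading values over the 18 arrays were those of KEX1, with YBL111C (0.803), MFB1 (0.764) and AIM23 (0.714), at 0.786, 0.747 and 0.808 without it.

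Between the protease genes themselves, PEP4 and PRB1 varied together over the 18 arrays (r = 0.91) and over the 17 without dN replicate 3 (0.709). YPS3 did so with PRB1 (0.945 and 0.704) and with PEP4 (0.905 and 0.679), and STE13 with CPS1 (0.814 and 0.838). The neighbouring genes YPS1 and YPS3 gave 0.805 with that array and 0.38 without it, and YPS1 and PRB1 gave 0.775 and 0.206. MKC7 ran opposite to PEP4 (-0.775 and -0.648) and alongside KEX2 (0.709 and 0.593).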

How the data were processed

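RNA of each culture was hybridised to an Affymetrix Yeast Genome 2.0 array. The authors deposited log2 values, for which they corrected the background of perfect-match probes by the RMA method, scaled the arrays to each other by qspline and summarised each probe set by median polish. These were used as deposited, so a change in total mRNA per cell lies outside them. No counts or depth exist for arrays, and the number of arrays limits the precision.

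Of 10928 probe sets, 7244 carried 1 gene symbol, 1 several and 3683 none in the platform annotation. Probe sets were paired through gene identifiers with the R64 reference, which left 5498 for 5449 genes. For 47 genes with several, the brightest was taken. The background level was the 95th percentile of 5430 probe sets not so paired.

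The limma package (version 3.58.1, R 4.3.3) fitted a mean per strain over all 18 arrays, with lmFit and eBayes. Tests were two-sided, p-values were adjusted over all 5449 genes by the Benjamini-Hochberg method, and a gene was called at an adjusted p under 0.05. The fit was tested on simulated data in which each gene had the same spread in every strain, without an array like dN replicate 3. Replicates were separate bioreactor cultures. The dN array whose title has no number is called replicate 1 here.

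The protease genes and the related lists were chosen with earlier results of these data known. Of each list up to 4 called genes of largest change are named per contrast, and for each protease gene the 3 genes of highest correlation over the arrays. Genes that did not pass (PEP1, YPS5, YPS6 and EXG1) and the nearest patterns without dN replicate 3 were named after their values were seen. The alternatives were fits of only the strains compared, a replicate block, all probe sets, no dim genes, quantile normalization, median centring, an intensity trend with robust priors, array weights, a threshold of 0.01 and leaving out each array. Leaving out all 3 dN arrays, and the list counts and correlations without dN replicate 3, were added after seeing the data. The leader sequence is the designed construct of the study's supplement. Protein and promoter sequences were not used here.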

Additional observations from a re-analysis of the deposited data

How the results depend on the processing

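Of the 10 protease genes, the number called stayed the same in every contrast with all probe sets, without dim genes (501 left out, no protease gene among them), with quantile normalization, with median centring and with a trended robust prior. Each gene had 1 probe set, so no other could be tried. With array weights the number became 2 in dN against WN (1925 of all genes), 5 in dI against WI (2235) and 1 in dA against WA (2375). It was 5 in the averaged deletion (3215), 2 in WA against WN (1454) and 2 in dI against dN (1619). In dA against dN it was 4 (2045) and in dA against dI 3 (1440). With these weights YPS1 in dA against dN turned from 0.13 to -0.40 (limma's adjusted p = 0.0301). Fitting only the strains compared gave 5 in dI against WI (1587 of all genes), 0 in dI against dN (71) and 1 in dA against dI (473). It does not apply to the average, which uses all strains. At an adjusted p under 0.01 the averaged deletion and dI against dN gave 0, where 1566 and 304 of all genes were called. Leaving out the 3 dN arrays, chosen after seeing the data, gave 3 in dI against WI (30.4% of all genes) and 1 in dA against WA (34%). Leaving out 1 array in turn gave 0 to 2 in dN against WN, 0 to 3 in dI against WI, 0 to 1 in dA against WA, 1 to 3 in the average, 0 to 3 in dI against dN and 0 to 1 in dA against dN, and 0 in the others. The highest counts in dN against WN and dI against dN came without dN replicate 2 (1885 and 1186 of all genes called). Those in dI against WI, dA against WA, the average and dA against dN came without dN replicate 3 (1634, 1833, 2680 and 1344). The causes were not tested.

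A replicate block gave 1 call in dN against WN, YPS1 at -1.04 (adjusted p = 0.0364), where 893 of all genes were called, and changed no other call. The main fit did not take the numbers as pairs. Deviations of same-numbered arrays had a median correlation of 0.199 for replicate 1 (-0.004 to 0.675). It was -0.015 for replicate 2 (-0.564 to 0.458) and 0.085 for replicate 3 (-0.416 to 0.62). Of 17 numbered arrays, 9 correlated best with an array of their own number. Whether same-numbered cultures were handled together was not tested.

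With 3 arrays a strain, the 95% interval of the log2 difference between dN and WN ran from -0.26 to 0.08 for KEX1 and from -1.82 to 0.43 for YPS3.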
